A study of Mus musculus with 2 samples.

Results

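The Bcl2 family and the initiator caspase Casp8 were examined in RNA of extracellular vesicles from cultures of mouse cytotoxic T lymphocytes (CTL), which kill target cells on contact. Members were the probes annotated to Mcl1, Bcl2, Bcl2l1, Bcl2l11, Bax, Bak1, Bid, Bad or Casp8. Of these 9 symbols, 8 were found among the 19316 genes named on the array, on 10 of its 23473 probes. No probe is listed under Bax in the annotation used here, so Bax was not analysed. Per the labels, CTL were cultured for 7 days and the medium was concentrated by ultrafiltration with a 750 kDa cutoff. The concentrate was put on a DEAE column, a positively charged resin that holds particles by their negative charge. The 0.5 M NaCl group is the vesicle RNA eluted with 0.5 M NaCl, and the 0.3 M NaCl group is that eluted with 0.3 M NaCl from the same kind of culture medium. Each group was 1 Cy5-labelled array. The sources used here do not give strain, age, genotype or stimulus of the cells, nor the number of cultures behind a fraction.

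Proteins of the Bcl2 family decide whether the outer membrane of the mitochondrion stays closed. Survival members (Mcl1, Bcl2 and Bcl2l1, which encodes Bcl-xL) bind and restrain their relatives. BH3-only members (Bcl2l11, which encodes Bim, and Bid and Bad) carry stress signals to them, and the effectors Bax and Bak1 form the pore that releases cytochrome c. Casp8 is the protease that death receptors activate, and it cuts Bid to join the death receptor route to the mitochondrial one. In T cells the balance of Bim against Bcl2 and Mcl1 is known to govern how many activated cells survive.

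A single array per group gives no replicate spread, so there was no test and no p-value, and precision is limited by the number of arrays. Values were deposited as linear probe intensities in arbitrary units, rounded to whole numbers. The table holds one for 71.3% of probes at 0.5 M and 80.8% at 0.3 M, with a median of 25 on each array and a lower quartile of 12 at 0.5 M and 11 at 0.3 M. Over the 16154 probes measured on both, the log2 median at 0.5 M lay 0.30 below that at 0.3 M, and this shift was taken out of every difference called centred below. Of 14 CTL markers, 13 had a value on both arrays. Cd8a, the coreceptor of these cells, had an intensity of 2463 at 0.5 M and 3677 at 0.3 M on the 1 of its 2 probes with values. The coreceptor chain Cd8b1 had 496 and 333, the granule protease Gzmb 2838 and 2493, and the T cell regulator Tbx21 25174 and 39433. By contrast, the receptor chain Cd3e (14 and 12) and the pore-forming perforin Prf1 (26 and 33) were dim. Fewer vesicles carrying a transcript and fewer copies per vesicle cannot be told apart in such samples.

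None of the 7 members measured on both arrays differed by 2-fold between the fractions. Mcl1, bright on both arrays, was the only member gene with a centred difference below 0, while Bcl2 lay close to 0. Bcl2l1, Bak1 and Casp8 had the highest centred differences, and Bid and Bad small ones. Over all 13735 genes measured on both arrays, 7.87% passed 2-fold in either direction, 5.1% higher and 2.77% lower at 0.5 M. Beside so low a share, 0 of 7 says little about the members. Different probes of a gene were the only error that could be had: their centred differences had an SD of 0.58 over 635 genes with several probes, and 0.44 over the 63 genes whose probes all had an intensity of 50 or more. This error leaves out the spread between vesicle preparations.

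Mcl1, a short-lived survival protein that holds Bim and Bak1 in check, had an intensity of 622 at 0.5 M and 1079 at 0.3 M. Both are bright: 95.2% of probes with a value at 0.5 M and 97.3% of those at 0.3 M lay at or below them. Mcl1 was thus the lower of the pair at 0.5 M, by a log2 difference of -0.79 as deposited and -0.50 after centring, which is 1.41-fold. The centred value lies between the SD of 0.44 for bright probes of a gene and that of 0.58 for all. The value as deposited also holds the shift of 0.30 that all probes share, so it is not set against these SDs. Genes were divided by their mean log2 intensity into 10 groups of equal size. In the brightest, which holds Mcl1, the median centred difference was 0.34 and the 10th and 90th percentiles were -0.67 and 1.01. Mcl1 lay inside that range, with 14.2% of the brightest genes at or below it. It has only 1 probe, so no other probe checks its value.

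Bcl2, the founding survival gene, had 2 probes, annotated to different RefSeq transcripts of the gene. One had an intensity of 198 at 0.5 M and 233 at 0.3 M. The other, near the array median, had 25 at 0.5 M and 29 at 0.3 M. Both were slightly lower at 0.5 M as deposited and slightly higher after centring, with centred log2 differences of 0.06 and 0.09. Their gap of 0.02 was small beside the SD of 0.58 between probes of a gene. Averaged, Bcl2 had a centred difference of 0.08, against a median of 0.05 over all measured genes.

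Bcl2l1, the gene of Bcl-xL, was dim, with an intensity of 13 at 0.5 M and 10 at 0.3 M. Only 30.0% of probes at 0.5 M and 23.8% at 0.3 M lay at or below it. Its centred log2 difference was 0.68, a fold of 1.60. At such intensities the rounding to whole numbers alone allows any centred value between 0.55 and 0.81. Of the 538 probes that share its intensity of 10 at 0.3 M, 27.5% had no value at 0.5 M. Genes of like level spread widely, with 10th and 90th percentiles of -0.89 and 0.83, and 85.5% of them lay at or below Bcl2l1.

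**Figure D1:**
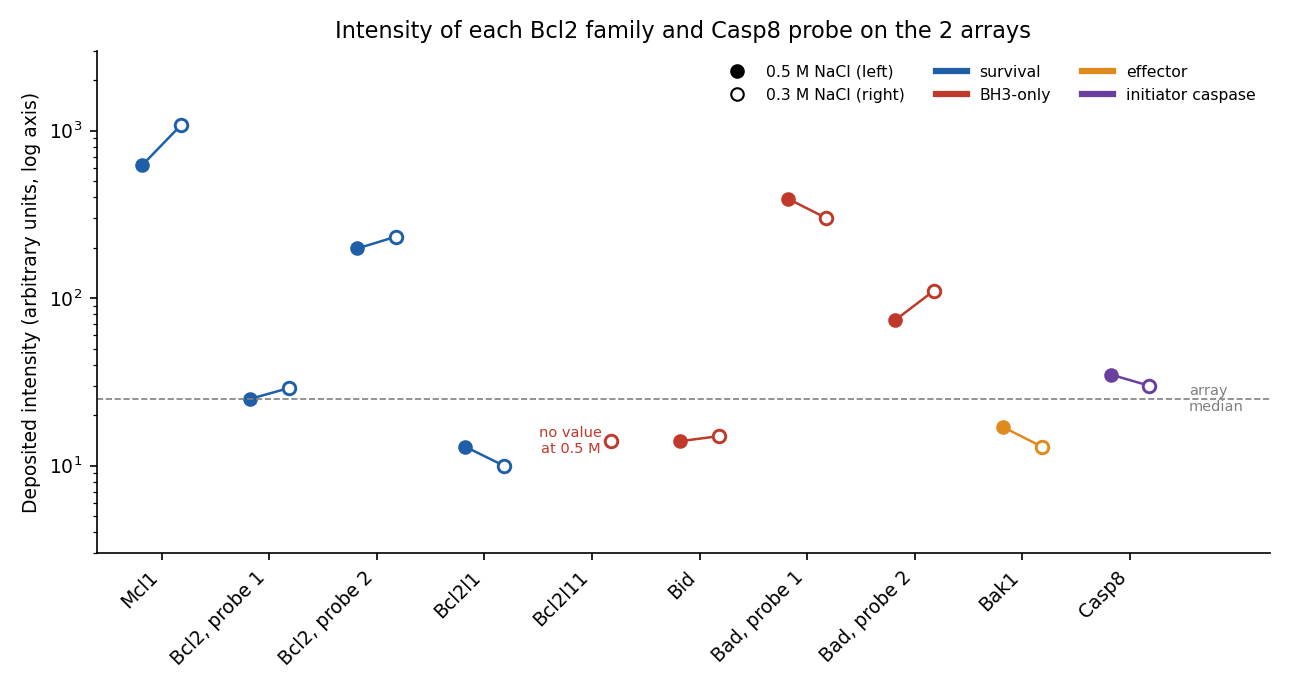
Deposited intensity (log axis) of each of the 10 member probes, with the 0.5 M NaCl array as a filled point on the left and the 0.3 M NaCl array as an open point on the right. Mcl1 (622 and 1079) is lower at 0.5 M, 4 genes have probes at or above the array median of 25 on both arrays, and Bcl2l1, Bcl2l11, Bid and Bak1 lie below it.

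Among the BH3-only genes, Bcl2l11, the gene of Bim, had no value at 0.5 M and an intensity of 14 at 0.3 M. It is therefore without a difference. Empty cells are common at this brightness: of the 406 probes at 14 on the 0.3 M array, 49 (12.1%) were empty at 0.5 M. No probe empty at 0.5 M exceeded 41 at 0.3 M. The sources used here do not say why cells were left empty, so the empty cell does not show that Bim RNA was missing from the 0.5 M fraction.

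Bid, which Casp8 cuts into its active form, had an intensity of 14 at 0.5 M and 15 at 0.3 M. These neighbouring whole numbers give a log2 difference of -0.10 as deposited and 0.20 after centring, with a span of 0.10 to 0.30 allowed by rounding. The direction of Bid thus depends on the scaling.

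Bad, which binds Bcl2 and Bcl-xL when growth signals are withdrawn, had 2 probes annotated to the same RefSeq transcript. One had an intensity of 393 at 0.5 M and 300 at 0.3 M, the other 74 at 0.5 M and 111 at 0.3 M. They disagreed in direction, with centred log2 differences of 0.69 and -0.29, a gap of 0.97. Both probes were bright enough that rounding moved either value by less than this gap, since the spans it allows are 0.68 to 0.69 and -0.30 to -0.27. The mean, 0.20, describes neither probe, and no direction can be given for Bad.

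Bak1, the pore-forming effector that sits in the outer mitochondrial membrane, had an intensity of 17 at 0.5 M and 13 at 0.3 M. It was dim on both arrays, like Bcl2l1. Its centred log2 difference was 0.69, a fold of 1.61, with a span of 0.59 to 0.78 from rounding. Among genes of like level 88.5% lay at or below it, and the 90th percentile there was 0.77.

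Casp8 had an intensity of 35 at 0.5 M and 30 at 0.3 M, a little above the median of each array. The centred log2 difference was 0.52, a fold of 1.44, and the rounding span was 0.48 to 0.57. Of genes of like level 85.4% lay at or below Casp8, whose value stayed under their 90th percentile of 0.63. Of the genes that act with Casp8 at death receptors, 3 were chosen for mention with their values known. The receptor Fas had 20 at 0.5 M and 16 at 0.3 M, the adaptor Fadd 7 on both, and the Casp8 inhibitor Cflar 17 at 0.5 M and 31 at 0.3 M on the 1 of its 2 probes with values.

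**Figure D2:**
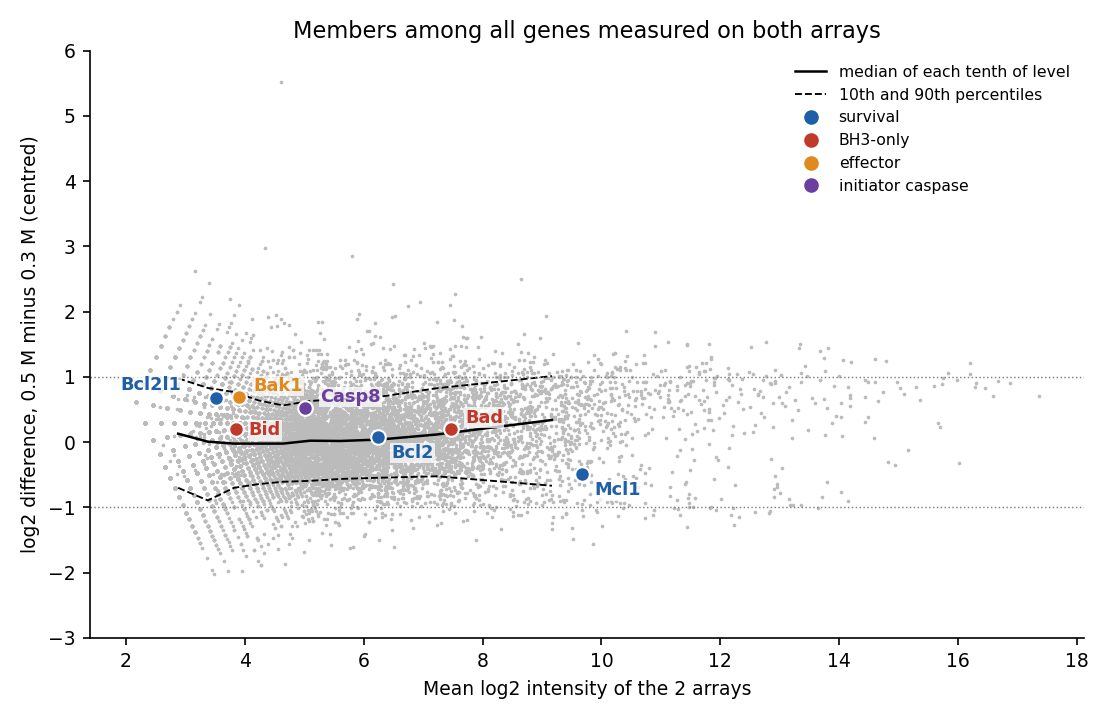
Centred log2 difference (0.5 M minus 0.3 M) against the mean log2 intensity of both arrays for 13735 genes (grey) and the 7 members measured on both (coloured by role). The solid line is the median and the dashed lines the 10th and 90th percentiles of each of 10 groups of level, and all 7 members lie inside these percentiles of their own group of level and within the dotted 2-fold lines; Mcl1 sits in the brightest group, to the right of its drawn centre.

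Survival members were set against death members (the BH3-only genes, Bak1 and Casp8). The median centred difference was 0.36 over the 4 death members with values on both arrays and 0.08 over the 3 survival members. After centring, all 4 death members and 2 of 3 survival members lay above 0, as did 53.7% of all measured genes. Bad counts there by the mean of its 2 probes. As deposited, 2 of the 4 death members and 1 of the 3 survival members lay above 0, where the median over all genes was -0.25. The survival median minus the death median was -0.29, which centring cannot alter, and no error can be given for it. The sets overlapped, since death members ran from 0.20 to 0.69 and survival members from -0.50 to 0.68. Bcl2l1 of the survival set and Bak1 of the death set had nearly equal values. Mcl1 and Bcl2 lay below the gene values of the death members, Mcl1 on the other side of 0. Of the 2 probes of Bad, however, 1 lay below Bcl2, at a centred -0.29. Since Bad is a mean of disagreeing probes and Bid and Bak1 are dim, the death median rests on few firm values. Leaving Casp8 out, so that Bcl2 family genes alone were set against each other, gave a death median of 0.20 and a survival minus death value of -0.13. Only 4 members (Mcl1, Bcl2, Bad and Casp8) reached the median over measured genes on 1 array or both, and over these the survival median was -0.21, the death median 0.36 and their difference -0.57.

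The direction of Mcl1, Bcl2l1, Bak1 and Casp8 was the same under each of 5 scalings, and that of Bcl2, Bid and Bad was not. Mcl1 had a difference of -0.79 as deposited, -0.78 with quantile normalization, -0.85 with a loess trend on level removed and -0.59 with a pseudocount of 16. Bcl2l1 had 0.38 as deposited, 0.69 with quantile normalization, 0.70 with loess and 0.35 with the pseudocount. For Bak1 the values were 0.39 as deposited, 0.66 with quantile normalization, 0.71 with loess and 0.38 with the pseudocount. These 2 dim genes lost the most to the pseudocount, whereas Mcl1, a bright gene, moved away from 0 once the trend with level was taken out. Casp8 had 0.22 as deposited, 0.50 with quantile normalization, 0.52 with loess and 0.34 with the pseudocount. Bcl2 lay at -0.22 as deposited and -0.02 with quantile normalization, against 0.00 with loess and 0.02 with the pseudocount. Bid and Bad were each at -0.10 as deposited and above 0 in the other settings. In each of these scalings 0 of 7 members passed 2-fold, where the share over all genes was 10.9% as deposited, 7.51% with quantile normalization, 7.35% with loess and 1.88% with the pseudocount.

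**Figure D3:**
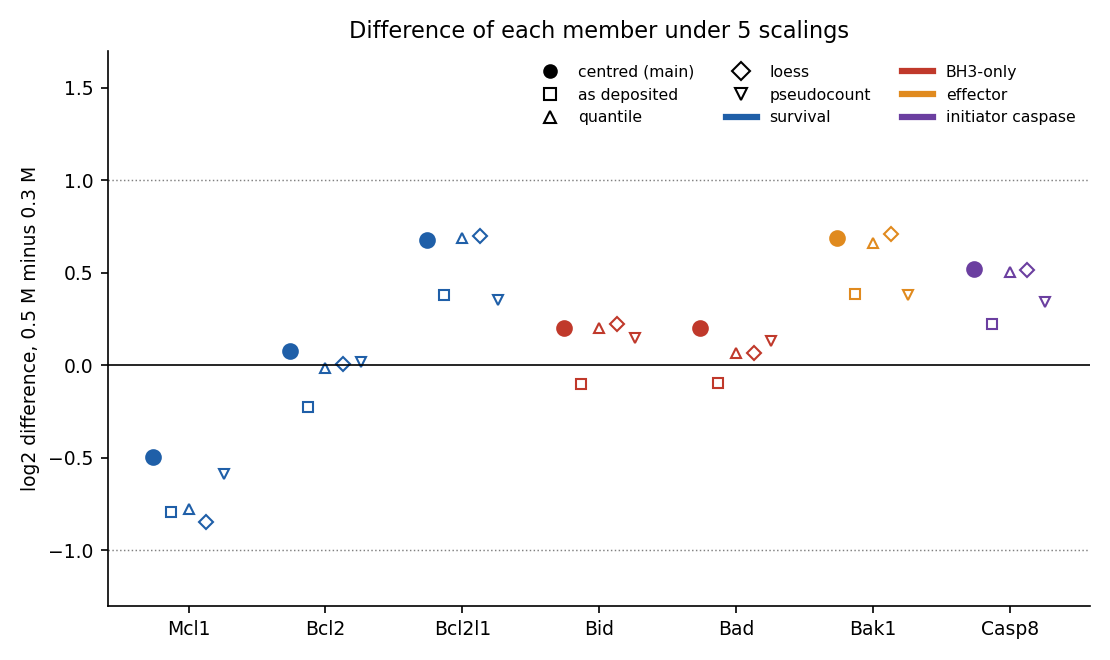
log2 difference (0.5 M minus 0.3 M) of each of the 7 members under 5 scalings, with the centred value filled and the others open. Mcl1 stays below 0 (-0.85 to -0.50), Bcl2l1, Bak1 and Casp8 stay above 0, and Bcl2, Bid and Bad fall on both sides, none passing the dotted 2-fold lines.

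Other genes of the pathway numbered 65, of which 57 had a probe and 47 had values on both arrays. After centring 0 of these 47 passed 2-fold in either direction, against 7.87% of all measured genes, and 24 lay above 0, 22 below and 1 at 0. Their median centred difference was 0.01, against 0.05 over all genes. Values as deposited left 14 above 0 and 32 below. Among other survival genes, 2 of 4 lay above 0. Bcl2a1c, of the A1 group of NF-kB-driven survival genes, had 323 at 0.5 M and 281 at 0.3 M (centred 0.50). A1 copies are near-identical and their probes may not separate them. Yet the 2 probes of the copy Bcl2a1a were far dimmer and differed in direction. One had 20 at 0.5 M and 33 at 0.3 M (-0.42), the other 20 at 0.5 M and 22 at 0.3 M (0.16). Bcl2l2, the gene of Bcl-w, had 43 at 0.5 M and 60 at 0.3 M (-0.18).

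Other BH3 and pore genes leaned below 0 under each of the 5 scalings, all of which rest on the same 2 arrays. As deposited, the median over all genes was itself -0.25. After centring 6 of 9 lay below, 2 above and 1 at 0, and the median was -0.25 (-0.55 as deposited, -0.23 with quantile normalization, -0.23 with loess and -0.08 with the pseudocount). Only 4 of the 9 reached the median over measured genes on 1 array or both. The centred median is the value of the dim Bcl2l13, with 13 at 0.5 M and 19 at 0.3 M, so it rests on few firm values. Bbc3, the gene of the p53 target Puma, had 67 at 0.5 M and 116 at 0.3 M, a centred difference of -0.49. Hrk, a BH3-only gene known best from neurons, had 300 at 0.5 M and 469 at 0.3 M (-0.35). Bnip3, a mitophagy receptor induced by low oxygen, stood on the other side with 130 at 0.5 M and 88 at 0.3 M (0.86). This role and the death members thus had medians of opposite sign after centring, though both hold BH3-only genes and the difference between them was not tested. Bnip3l had a value at 0.5 M alone and Bcl2l15 at 0.3 M alone.

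Of 9 other caspases, 4 had values on both arrays, and only Casp2 reached the median over measured genes, with 63 at 0.5 M and 72 at 0.3 M (centred 0.11, as deposited -0.19). Casp12 had a value at 0.5 M alone and Casp4 at 0.3 M alone. Genes of the apoptosome and of mitochondrial release had the highest median of the 7 roles, 0.32 over 8 genes with 7 above 0. As deposited the median was 0.02 and 4 of 8 lay above 0, while loess gave 0.11 and quantile normalization 0.12. The channel genes Vdac3 (1533 at 0.5 M, 1276 at 0.3 M) and Vdac2 (903 at 0.5 M, 770 at 0.3 M) had centred differences of 0.56 and 0.53, next to the median of 0.34 among the brightest genes. Dffb, the nuclease that cuts DNA in dying cells, had 33 at 0.5 M and 27 at 0.3 M (0.59), and its inhibitor Dffa a value at 0.3 M alone.

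Death receptor genes lay on both sides of 0, with 3 of 8 above and a median of -0.08. Tradd, the adaptor of TNF receptors, had 826 at 0.5 M and 1512 at 0.3 M, a centred difference of -0.57 and -0.97 with loess. Ripk3, the kinase of necroptosis, had 93 at 0.5 M and 68 at 0.3 M (0.75), and Cradd, an adaptor of Casp2, 30 at 0.5 M and 40 at 0.3 M (-0.12). The receptor Tnfrsf1a had a value at 0.3 M alone and the ligand Tnfsf10, known as TRAIL, at 0.5 M alone. Genes grouped here as inhibitors of apoptosis were divided too, with 5 of 9 above 0 and a median of 0.17 (-0.13 as deposited). What each of them does in these cells was not examined. Bcap31 (414 at 0.5 M, 328 at 0.3 M) and the Bcl2-binding cochaperone Bag1 (695 at 0.5 M, 648 at 0.3 M) had centred differences of 0.64 and 0.40. Birc5, the gene of survivin, which also serves in mitosis, had 743 at 0.5 M and 1119 at 0.3 M (-0.29).

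Genes of the p53 axis had a median of -0.29 over 5 genes, 3 below 0 and 2 above. Their median was below 0 under each of the 5 scalings of the same 2 arrays. As deposited it was -0.58, where the median over all genes was -0.25. Ppp1r13l, the gene of the p53 inhibitor iASPP, had 5159 at 0.5 M and 11426 at 0.3 M. Its centred difference was -0.85, and it passed 2-fold as deposited (-1.15), with quantile normalization (-1.33) and with loess (-1.48). The cell cycle inhibitor Cdkn1a had 334 at 0.5 M and 262 at 0.3 M (0.65), and the RNA-binding Zmat3 44 at 0.5 M and 68 at 0.3 M (-0.33).

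**Figure D4:**
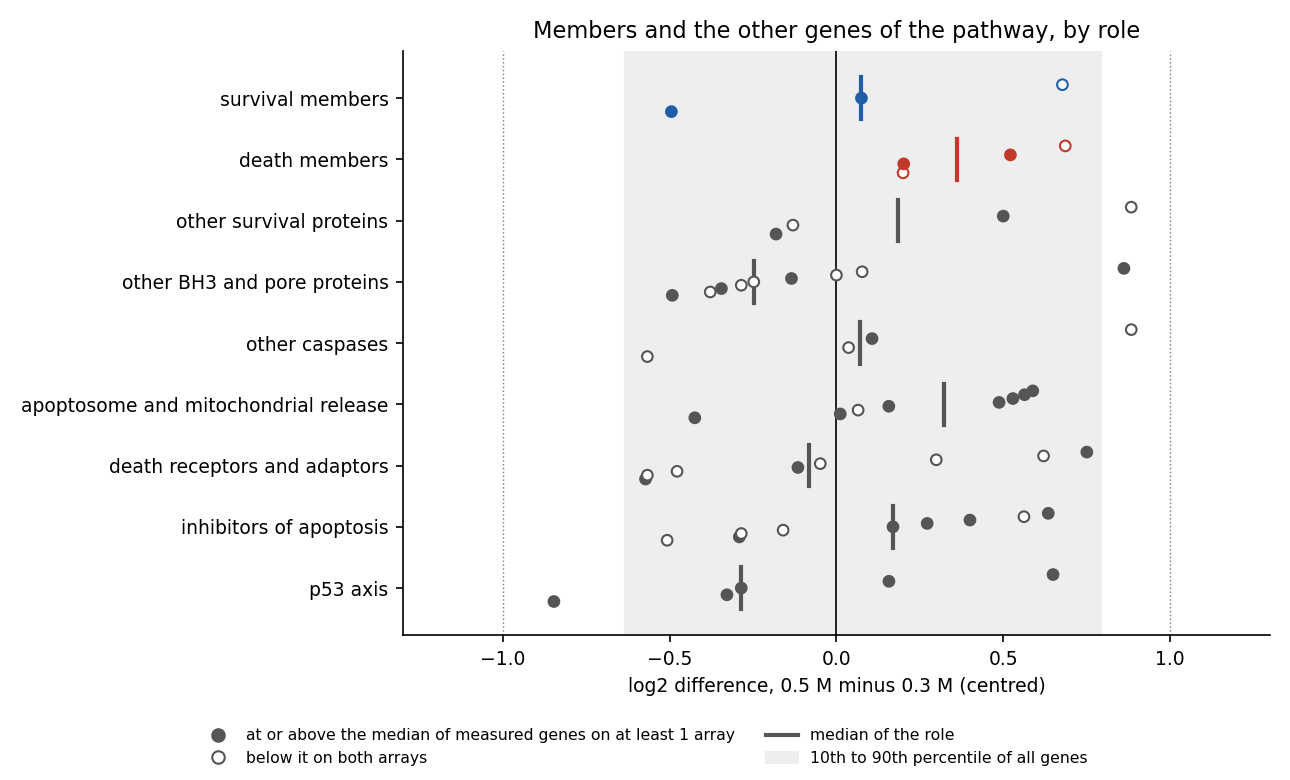
Centred log2 difference (0.5 M minus 0.3 M) of each member and pathway gene measured on both arrays, by role, with a bar at each median; filled points reached the median over measured genes on 1 array or both, and the grey band runs from the 10th to the 90th percentile of all genes (-0.64 to 0.80). Every point lies within the dotted 2-fold lines, and the leftmost is Ppp1r13l (-0.85).

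Some markers of other cells differed more between the arrays than any member did. Of 10 markers of macrophages and dendritic cells, 9 had values on both arrays and summed to an intensity of 1481 at 0.5 M and 683 at 0.3 M, with 3 at least 2-fold higher and 1 lower at 0.5 M. Named after their values were seen, the 3 higher were the class II genes H2-Aa (centred 2.50) and H2-Eb1 (2.09) and their invariant chain Cd74 (2.43). The 1 lower was the mannose receptor Mrc1 (-1.27). H2-Aa (863 at 0.5 M, 188 at 0.3 M), H2-Eb1 (200 and 58) and Cd74 (188 and 43) carry the higher sum at 0.5 M. Their place on this list does not show that their RNA came from macrophages or dendritic cells, and its source was not tested. Among the list's other genes, Lyz2 had 18 on both arrays, Csf1r 50 at 0.5 M and 49 at 0.3 M, and Cd68 53 and 50. Itgax (11 and 10) and Cd14 (11 and 8) were dim, and Mrc1 had 87 at 0.5 M and 259 at 0.3 M. The B cell list summed to 549 at 0.5 M and 381 at 0.3 M over 5 of 7 genes. Of these, 2, Cd79b (2.10) and Blnk (1.58), likewise named with values known, were at least 2-fold higher at 0.5 M. Cd22 (-0.54) and Cd79a (-0.15) lay below 0, and Ms4a1 had 21 on both arrays (0.30). Cd79b, with 328 at 0.5 M and 94 at 0.3 M, carries the higher B cell sum at 0.5 M. NK cell markers summed to 801 at 0.5 M and 561 at 0.3 M over 3 of 5 genes, all 3 above 0 and 1 past 2-fold, the dim Ncr1 (9 at 0.5 M, 5 at 0.3 M), and Nkg7 of this list is also a CTL marker here. Red cell and platelet markers summed to 7983 at 0.5 M and 17226 at 0.3 M over 6 of 9 genes, 1 of them at least 2-fold lower at 0.5 M. The globin genes Hba-a2 (5681 at 0.5 M, 12001 at 0.3 M), Hbb-bs (1518 and 3747) and Hbb-bt (697 and 1367) carry this sum. The platelet genes Ppbp (39 and 50) and Pf4 (20 and 33) were far dimmer, and Alas2 had 28 on both arrays. CTL markers summed to 33594 at 0.5 M and 48332 at 0.3 M over 13 genes, a sum that Tbx21 carries: without it the sums were 8420 at 0.5 M and 8899 at 0.3 M. Of the 13, 9 lay above 0 both centred (median 0.49) and as deposited (0.19). Adgre1 of macrophages, Pax5 of B cells and Itga2b of platelets had no value on either array, but other markers of those cells had values on both, such as Csf1r (50 at 0.5 M, 49 at 0.3 M), Cd22 (126 at 0.5 M, 225 at 0.3 M) and Ppbp (39 at 0.5 M, 50 at 0.3 M). The part of such RNA in the values of the Bcl2 family was not tested.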

How the data were processed

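Per the labels' protocols, amplified amino allyl RNA was coupled to Cy5. The authors deposited 1 intensity per probe and array; scanner, background correction, normalization and the rule for empty cells were not given in the sources used here. Of 23473 probes, 20690 carried 1 gene symbol, 0 several and 2783 none. Symbols were looked up by Entrez identifier (20556), accession (9) or kept from the array annotation (125). No build is named, so no coordinates are given. Intensities were log2-transformed, each array's median over shared probes was subtracted, and probes of a gene with values on both arrays were averaged. Empty cells got no floor, and dim genes stayed in. Named were all members, up to 3 pathway genes per role with the largest absolute difference among those that reached the median over measured genes on 1 array or both, pathway genes with a value on 1 array alone, and 6 CTL markers. Fas, Fadd, Cflar, Bcl2a1a and the markers of other cells were named outside this rule, with their values known. Members and lists were chosen with earlier results of these data known. Alternatives were other scalings (loess span 0.3), a pseudocount, the brightest probe, a filter on dim genes and leaving out Casp8. Python 3.11.15, pandas 2.3.3 and statsmodels 0.14.6 were used. The scaling was tested on simulated data with a shift common to all probes and no trend with level, rounding or empty cells. That test therefore does not show how the scaling handles these features.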

Additional observations from a re-analysis of the deposited data

How the results depend on the processing

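No paired analysis was possible because each fraction has 1 array and no result comes from a test. The 12 results on the members and the pathway were recomputed in 71 combinations with an alternative, and 68 stayed within the SD of 0.58 between probes of a gene (counts within 1.5 times). The other 3 concern pathway genes past 2-fold, which numbered 1 as deposited, 1 with quantile normalization and 1 with loess, namely Ppp1r13l, against 0 after centring. The 68 say little about stability, since many could hardly have come out otherwise. That SD exceeds the size of both medians and of every member's centred difference except those of Bcl2l1 and Bak1. Values as deposited move each member by the same 0.30, and the brightest probe leaves genes with 1 probe unchanged. The sign changed in 7 combinations: Bcl2 and the survival median as deposited (-0.22 each) and with quantile normalization (-0.02 each), Bid and Bad as deposited (-0.10 each), and the survival median with the filter on dim genes (-0.21). With the brightest probe alone, Bad was at 0.69. The survival minus death value ran from -0.57 to -0.13. Of genes past 2-fold, 64.8% were higher at 0.5 M (701 higher, 380 lower), against 18.9% as deposited (283 and 1215), 49.2% with quantile normalization (508 and 524) and 49.8% with loess (502 and 507), while the pseudocount left 160 higher and 98 lower. For Bcl2l1, Bid, Bak1 and Bcl2l11, at intensities of 10 to 17, brightness limits what can be read.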
